A study of Mus musculus with 6 samples.

Results

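Collagen chain genes were examined in endothelial cells sorted from mouse liver. The members were every gene of the deposited expression table whose symbol is Col, a number, the letter a and a number, with nothing before or after. The table lists 39179 genes, and 44 of them met this rule. They comprise 11 fibrillar chains, 6 chains of type IV, the network collagen of basement membranes, and 27 chains of other kinds. Of the 44, 20 reached 1 CPM (a gene's reads divided by the scaled library size, the unit of the deposited table) in at least 3 of the 6 libraries and are called expressed here. Most collagen RNA of these cells came from Col4a1, Col4a2 and Col13a1, whose groups overlapped between the diets. Col27a1, a fibrillar chain, was lower on the high-iron diet, at 25.7 ± 2.85 CPM against 56.7 ± 11.1 CPM (SD, n = 3 per group), and it was the sole chain that passed the test.

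A collagen is a trimer of chains that wind into a triple helix of glycine-rich repeats. Fibrillar collagens are secreted as procollagens, lose their end domains to proteinases and assemble into the banded fibrils of scar and stroma, whereas type IV chains form sheet-like networks, and transmembrane collagens stay on the cell surface. In liver, sinusoidal endothelium lies on a sparse, discontinuous matrix with type IV collagen in it, and stellate cells, the pericytes of the sinusoid, are the main makers of fibrillar collagen after injury.

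The donors were wild-type male mice of the strain 129S6/SvEvTac in both groups. From the age of 3 weeks they ate either a control diet with 37 ppm iron as ferric citrate or a high-iron diet with 10000 ppm carbonyl iron, for 4 weeks, and livers were taken at 7 weeks. Each diet group held 3 biological replicates. The sorting gate retained CD31+ CD146+ cells that were negative for CD45, lineage markers, MHCII and CD64.

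Libraries held 12963510 to 21663543 reads in genes, so that 1 CPM stood for 13.0 to 21.5 reads. All 10 endothelial markers listed were expressed, with a summed level of 13183 to 16048 CPM in the control libraries and 13151 to 14558 CPM in the high-iron libraries. Of these markers 0 passed the test. The groups did not overlap for Stab1 and Lyve1, which were higher on the high-iron diet, and for Kdr, which was lower. Mcam was at 18.4 ± 8.46 CPM in control and 8.85 ± 2.26 CPM in high-iron libraries (SD, n = 3), with overlap. RNA of other liver cells was present as well. Of 20 markers of stellate cells and fibroblasts, a list without collagens, 16 were tested, their summed level was 426 to 1912 CPM against 691 to 2049.5 CPM, and Acta2, Myh11, Dpt and Mfap4 missed the filter. The 12 hepatocyte markers summed to 281 to 1223 CPM against 635 to 1264 CPM. The 12 markers of Kupffer cells, the liver macrophages, summed to 73.9 to 174 CPM against 253 to 503 CPM without overlap, and 3 of them (Clec4f, Csf1r and Marco) passed the test as higher. Of 6 cholangiocyte markers, 5 missed the filter, and no list had a marker at 0 in every library. The part of these cells in the collagen values was not tested, except where a measurement below bears on it. In such bulk sorts, fewer cells of a type and less RNA per cell cannot be told apart.

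Per unit of transcript length, 3 chains stood far above the rest. RPKM, which divides CPM by the gene length in kilobases, is used wherever different genes are compared. It uses the deposited gene lengths, and merged exon lengths of GENCODE M21 were 0.882 to 1.65 times as long for the expressed chains. The highest ratio was that of Col4a4, which would have 0.225 in place of 0.372 RPKM, and the first 4 chains kept their order. Col4a1 had a mean of 161 RPKM over the 6 libraries, with a range of 109 to 208. Col4a2 followed with 112 RPKM (78.1 to 137), and Col13a1 with 80.6 RPKM (71.3 to 86.4). Together these 3 chains made up 89.9% to 95.6% of the summed RPKM of all collagen chains in a library. The next chain, Col17a1, had a mean of 4.62 RPKM, and its range of 3.11 to 6.23 lay wholly below that of Col13a1. No other neighbours in the order had separate ranges, so of 19 neighbouring pairs 1 was separated. Col5a2 (4.23 RPKM), Col14a1 (4.17 RPKM) and Col27a1 (3.18 RPKM) came after Col17a1, followed by Col20a1 (1.31 RPKM), Col4a3 (1.26 RPKM) and Col18a1 (1.07 RPKM). The means of Col5a1, Col3a1, Col1a2, Col4a4, Col6a1, Col23a1, Col16a1, Col6a3, Col11a2 and Col7a1 fell in that order from 0.728 to 0.0921 RPKM.

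**Figure D1:**
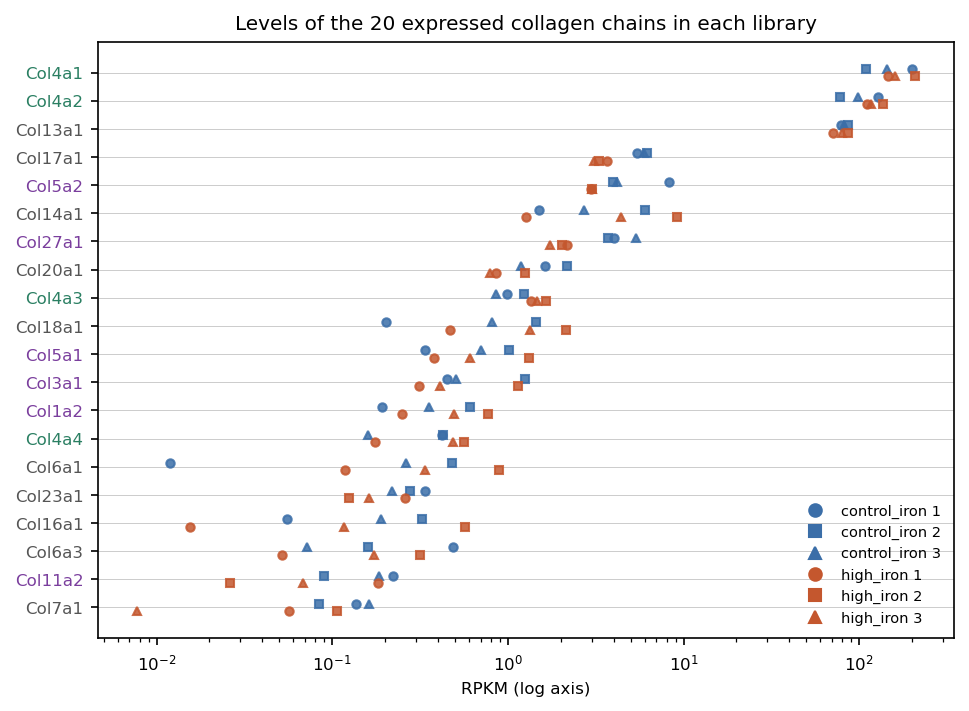
Level per length of the 20 expressed collagen chains, in RPKM on a log scale, with a point for each library coloured by diet group and shaped by replicate, and names in purple for fibrillar, green for type IV and grey for other chains. Col4a1, Col4a2 and Col13a1 lie between 71.3 and 208 RPKM, and the remaining chains lie at 9.13 RPKM or below.

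The 24 chains that were not expressed include several that define scar matrix or cartilage. Col1a1, the major chain of type I collagen in scar, ranged from 0.154 to 0.999 CPM and reached 1 CPM in no library. Its partner Col1a2 was expressed at 2.13 to 8.55 CPM, and the ratio of Col1a1 to Col1a2 per length was between 0.0947 and 0.416. That ratio overlapped between the diets, at 0.226 ± 0.168 in control and 0.179 ± 0.117 in high-iron libraries (SD, n = 3). Col1a1 had only 3 to 14 reads per library, so the ratio is imprecise. Among the 24, 21 chains stayed below 1 CPM in every library. Of these, Col9a1, Col8a2 and Col28a1 had no read in any library, which allows up to 3 reads, or 0.139 to 0.231 CPM according to library depth and for counting error only. Altogether 10 of the 24 had at most 3 reads in each library. Col9a3, Col8a1 and Col6a2 reached 1 CPM in 1 or 2 libraries. Col8a1, a chain of the hexagonal networks found beneath some endothelia, was at 3.32, 0.604 and 0 CPM in control replicates 1, 2 and 3, and at 0.411, 0 and 0 CPM in the high-iron replicates, so its control mean rested on 1 library. The other chains that were not expressed were the fibrillar Col2a1, Col5a3, Col11a1 and Col24a1, type IV Col4a5 and Col4a6, and Col15a1, Col6a4, Col6a5, Col6a6, Col9a2, Col12a1, Col19a1, Col22a1, Col10a1, Col25a1 and Col26a1. At the edge of the filter, the third-highest library had 1.06 CPM for Col7a1, the last chain inside, and 0.968 CPM for Col6a2, the first outside. Of the 20 expressed chains, 14 reached 1 CPM in every library. Col23a1 did so in 3 control libraries and 1 high-iron library, so that its control group alone met the filter. Col16a1, Col11a2 and Col7a1 did so in 2 control libraries and 1 high-iron library, and Col6a1 and Col6a3 in 2 of each group.

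The diet comparison asked whether dietary iron loading changes the collagen RNA of these cells. Of the 20 expressed chains, 1 was lower and 0 were higher at an adjusted p under 0.05 (limma, Benjamini-Hochberg adjustment over all genes tested), against 1.02% of the 12980 genes tested. The groups did not overlap for 4 chains of 20, against 17.9% of all genes tested, so the share among collagens was near the background. High-iron libraries were all lower for 3 of these, Col27a1, Col17a1 and Col5a2 (8.44% of all genes), and all higher for 1, Col4a3 (9.46% of all genes). An unadjusted p under 0.05 was reached by 5 of 20 chains against 12.1% of all genes. Of the log2 fold changes, 9 were above 0 and 11 below (50.5% of all genes were below), with a median of -0.04, beside a median of -0.003 over all genes tested. The 11 include Col23a1, whose control group alone met the filter. Fold changes are high-iron over control on the log2(CPM + 1) scale, which understates changes of low genes.

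**Figure D2:**
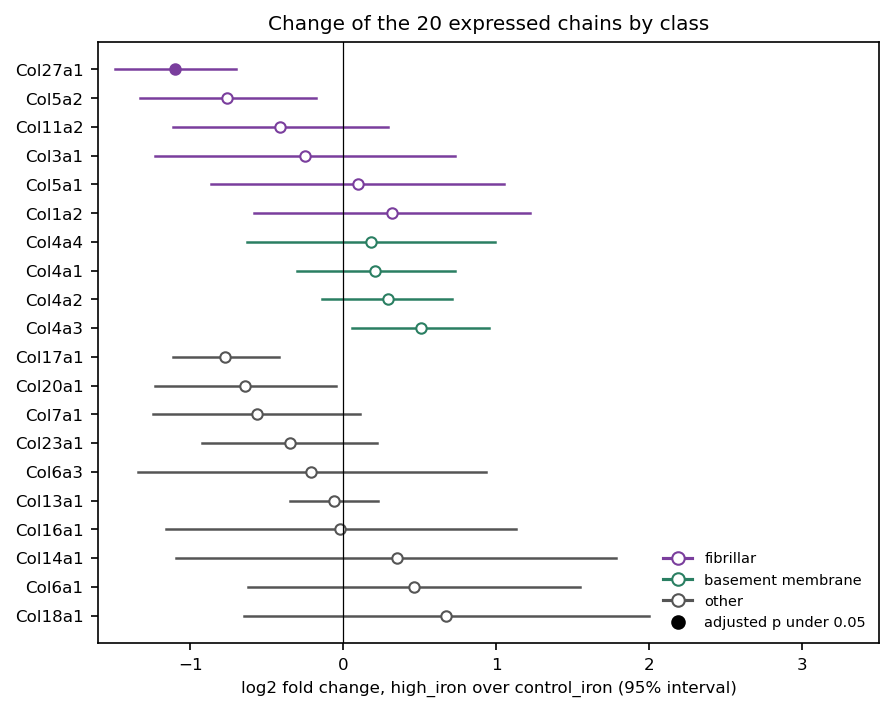
Log2 fold change (high-iron over control) of the 20 expressed chains with 95% intervals, coloured by class. Col27a1 is the filled point, at -1.10, the 4 type IV chains all lie above 0, and most intervals cross 0.

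Col27a1 encodes the chain of type XXVII collagen, a fibrillar collagen known from cartilage. The gene spans chr4:63214004-63334991 on the plus strand (GRCm38, which is mm10). The 250 bases before its RefSeq start, chr4:63215162-63215411, are shown because this is the chain that passed the test, with a match to the GC box GGGCGG in capitals.

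Col27a1: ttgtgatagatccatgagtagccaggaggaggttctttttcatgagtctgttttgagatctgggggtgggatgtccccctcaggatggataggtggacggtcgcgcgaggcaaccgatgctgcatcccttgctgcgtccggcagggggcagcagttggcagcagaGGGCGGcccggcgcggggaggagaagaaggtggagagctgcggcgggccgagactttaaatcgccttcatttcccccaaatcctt

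The window holds 1 GC box, a motif with a match in 32.7% of the 32851 mouse promoter windows of this length in RefSeq (GRCm38.p6, both strands). Also searched were the TATA box as TATAAA (a match in 12.4% of windows), the CCAAT box by that name and those letters (33.8%), and the AP-1 motif as TGANTCA (6.75%). The core of the antioxidant response element, to which NRF2 binds, was searched as TGACNNNGC (10.2%), and a SMAD-binding sequence as CAGACA (17.1%). None of these 5 had a match in the Col27a1 window, which says only that the letters are not in it. The RefSeq start lies inside the GENCODE gene, which has a longer transcript that begins upstream.

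Col27a1 was at 52.4, 48.3 and 69.3 CPM in control replicates 1, 2 and 3, and at 28.2, 26.4 and 22.6 CPM in the high-iron replicates. Every high-iron library was below every control library, and the ratio of means was 0.454. The log2 fold change was -1.10 ± 0.18 (SE), with a 95% interval of -1.49 to -0.70 and an adjusted p of 0.024 (limma). EdgeR's quasi-likelihood test on reads recovered from the CPM values gave an adjusted p of 0.034 and called 0.863% of all genes. With 1 library left out, adjusted p ran from 0.024 to 0.16: it was 0.024 without control replicate 1 and 0.041 without control replicate 2, but 0.053 without control replicate 3, and 0.06, 0.095 and 0.16 without high-iron replicates 1, 2 and 3. It was also 0.067 with no filter on low genes and 0.055 without the intensity trend.

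Col5a2 encodes a chain of type V collagen, which sits inside type I fibrils and limits their diameter. Its values were 66.9, 31.9 and 34.0 CPM in the control replicates and 24.2, 24.4 and 24.4 CPM in the high-iron replicates. The groups did not overlap, yet control replicate 1 stood well above the other control libraries. This gave a log2 fold change of -0.76 ± 0.25 (SE; 95% interval -1.33 to -0.18), with an adjusted p of 0.27 in limma. Without control replicate 1 it was -0.42. The gene lies on the minus strand of chr1:45374321-45503282, 24.6 kb from the end of Col3a1, which encodes the chain of type III collagen, the companion of type I in reticular fibres. Col3a1 was at 2.21 to 8.92 CPM, with overlapping groups and a log2 fold change of -0.25 (adjusted p 0.84).

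The remaining expressed fibrillar chains were Col5a1, the partner of Col5a2 in type V collagen, Col1a2 of type I, and Col11a2 of the cartilage collagen type XI. For these, log2 fold changes were 0.10, 0.32 and -0.41, the groups overlapped for each, and adjusted p was 0.94, 0.76 and 0.61 in limma. Per length, Col5a2 exceeded Col5a1 by 2.28 to 24.3 times, and this ratio overlapped between the diets. Over the 6 expressed fibrillar chains 1 was lower, 0 were higher, and the median log2 fold change was -0.33 (range -1.10 to 0.32). Summed over all 11 fibrillar chains, the level was 129, 107 and 119 CPM in the control replicates and 62.6, 79.9 and 63.0 CPM in the high-iron replicates. These sums did not overlap, and the difference lay in Col27a1 and Col5a2. Those chains summed to 80.3 to 119 CPM in control and 47.1 to 52.4 CPM in high-iron libraries, while the other 9 fibrillar chains summed to 10.2 to 26.2 CPM and 10.2 to 29.1 CPM. The groups did not overlap for Col27a1 or Col5a2, so the separation of their sum follows from that choice and is no further result.

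The type IV chains had no call in either direction. Col4a1 and Col4a2 encode the chains of the type IV trimer found in most basement membranes. They are neighbours on chromosome 8 that are transcribed in opposite directions from overlapping starts (Col4a1 at chr8:11198423-11312826, minus strand; Col4a2 at chr8:11312805-11449287, plus strand). Col4a1 was at 1359.8, 736 and 965 CPM in control replicates 1, 2 and 3 and at 988, 1405 and 1086 CPM in the high-iron replicates. Col4a2 was at 842, 513 and 649 CPM and at 731, 903 and 768 CPM. In control libraries both were highest in replicate 1, in high-iron libraries both were highest in replicate 2, and the groups overlapped. The log2 fold changes were 0.21 ± 0.23 (SE; 95% interval -0.30 to 0.73) for Col4a1 and 0.29 ± 0.19 (-0.14 to 0.71) for Col4a2, with adjusted p of 0.72 and 0.57 in limma. Their ratio per length, Col4a1 over Col4a2, stayed between 1.31 and 1.57 in the 6 libraries. It was 1.47 ± 0.0904 in control and 1.40 ± 0.101 in high-iron libraries (SD, n = 3), with overlap.

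Col4a3 and Col4a4 encode chains of the type IV network of the kidney filter and a few other sites. They too are transcribed away from each other (Col4a4 at chr1:82448423-82586849, minus strand; Col4a3 at chr1:82586921-82722059, plus strand). The 71 bases between their starts, chr1:82586850-82586920, are shown on the Col4a4 strand because the members of this pair share them, yet differed in level and spread.

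Col4a4-Col4a3 gap: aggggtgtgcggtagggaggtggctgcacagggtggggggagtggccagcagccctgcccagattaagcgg

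The gap is 69% G and C, and holds no match to any of the 6 motifs on either strand, so it has no capitals. Among promoter windows cut to the same 71 bases before a start, 20.7% hold GGGCGG and 4.41% hold TATAAA. Col4a3 was at 10.2, 12.9 and 8.88 CPM in the control replicates and at 14.1, 17.0 and 15.2 CPM in the high-iron replicates. All high-iron libraries were above all control libraries. Its log2 fold change was 0.51 ± 0.20 (SE; 95% interval 0.06 to 0.95), with an adjusted p of 0.35 in limma. Col4a4 was at 1.03 to 3.60 CPM, its groups overlapped, and its log2 fold change was 0.18 ± 0.36 (SE; adjusted p 0.86). Col4a3 exceeded Col4a4 by 2.35 to 7.72 times per deposited length (4.03 to 13.3 times per annotated exon length), and Col4a1 exceeded Col4a3 by 87.6 to 204 times. Exons of C430014B12Rik on the opposite strand overlap 5.65% of the Col4a3 exon length, and reads of such pairs cannot be told apart in libraries without strand.

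Over the 4 expressed type IV chains the log2 fold changes were all above 0, with a median of 0.25 (0.18 to 0.51), and 0 passed the test. Of all genes tested, 50.5% were below 0. The direction leaned on single libraries for some: Col4a1 was 0.001 without control replicate 2, and Col4a4 was -0.11 without control replicate 3. The multiplexin Col18a1, the source of endostatin, which lies at basement membranes, had 0.67 ± 0.59 (SE), with overlapping groups. Col17a1 of hemidesmosomes and Col7a1 of anchoring fibrils were below 0, at -0.77 and -0.56. The summed type IV level was 2215, 1264 and 1625 CPM in the control replicates and 1735, 2329 and 1873 CPM in the high-iron replicates, with overlap.

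**Figure D3:**
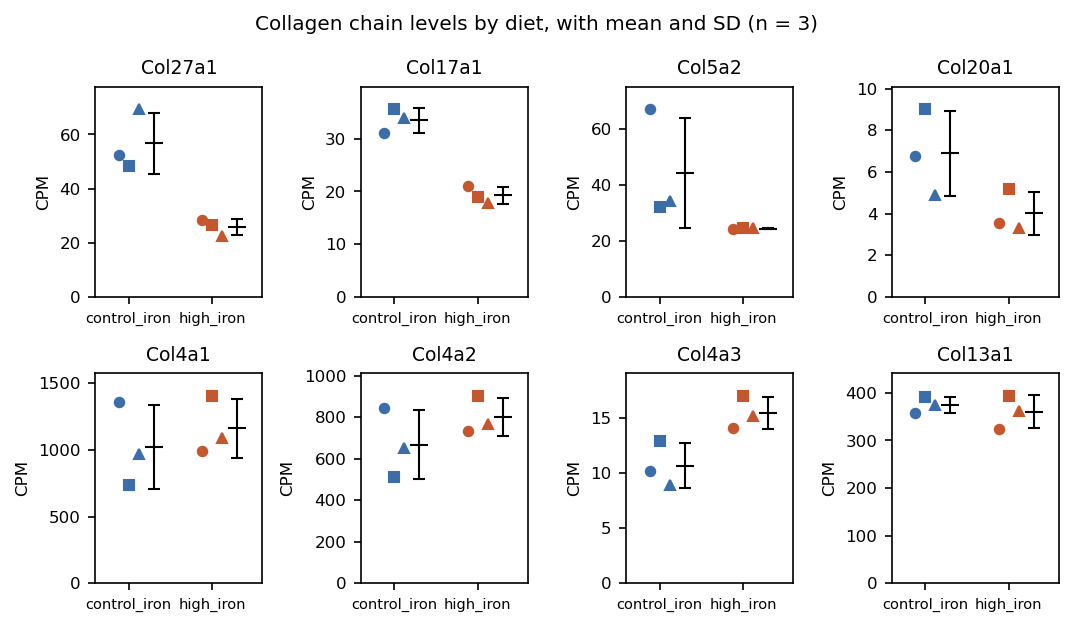
CPM in each library for 8 chains, with a circle, square and triangle for replicates 1, 2 and 3, the mean and SD of each diet group in black (n = 3), and an axis from 0 of its own in each panel. Groups are separate for Col27a1, Col17a1, Col5a2 and Col4a3, and overlap for Col20a1, Col4a1, Col4a2 and Col13a1.

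Among the other chains, the transmembrane collagens Col13a1 and Col17a1 were the most abundant per length. Col13a1 encodes a transmembrane collagen of cell-matrix adhesion sites, at chr10:61838236-61979108 on the minus strand. It was at 358, 391 and 374 CPM in the control replicates and at 325, 394 and 362 CPM in the high-iron replicates. This was a narrow spread with overlapping groups. The log2 fold change was -0.06 ± 0.13 (SE), and its 95% interval of -0.35 to 0.23 was the narrowest of the 20 expressed chains. Adjusted p was 0.87 in limma.

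Col17a1 encodes a transmembrane collagen known as a part of hemidesmosomes, which anchor epithelial cells to the basement membrane. It lies at chr19:47646344-47692094 on the minus strand. The 198 bases before the annotated exon, chr19:47692095-47692292, are shown as the letters before the start of the chain nearest to the threshold, with matches to TATAAA in capitals.

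Col17a1: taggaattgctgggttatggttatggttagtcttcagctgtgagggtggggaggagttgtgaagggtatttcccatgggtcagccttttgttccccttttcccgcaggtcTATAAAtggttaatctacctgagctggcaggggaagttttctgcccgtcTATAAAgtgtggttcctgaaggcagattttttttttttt

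The stretch holds 2 matches to TATAAA and none to the other 5 motifs. Relative to the RefSeq start, the stretch is the far 198 of the 250 bases before it. A match to TATAAA is present in 9.08% of all promoter windows cut to that far part, and in 12.4% of the full windows. Col17a1 was at 31.0, 35.6 and 33.9 CPM in the control replicates and at 21, 19 and 17.8 CPM in the high-iron replicates. Each group was tight, the groups did not overlap, and the ratio of means was 0.575. In log2 terms the fold change was -0.77 ± 0.15 (SE; 95% interval -1.11 to -0.42), with an adjusted p of 0.055 in limma, which missed the threshold. Adjusted p was 0.0501 with edgeR, 0.0011 with DESeq2, which called 3.27% of all genes, and 0.044 when genes were required to reach 5 CPM in 3 libraries. With 1 library left out it ran from 0.053 to 0.28 and passed in 0 of 6 fits. The third expressed transmembrane chain, Col23a1, was at 0.707 to 1.92 CPM with a log2 fold change of -0.35 and adjusted p of 0.60, and its control group alone had met the filter.

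Of the FACIT chains, which attach to the surface of fibrils, Col14a1, Col16a1 and Col20a1 were expressed. Col14a1 was at 10.9, 43.3 and 19.5 CPM in the control replicates and at 9.09, 65.7 and 31.8 CPM in the high-iron replicates. Replicate 2 was the highest and replicate 1 the lowest in either group, and the log2 fold change was 0.35 ± 0.64 (SE; 95% interval -1.09 to 1.78), which leaves room for a large difference in either direction. Col20a1 was at 6.75, 9.01 and 4.90 CPM and at 3.54, 5.19 and 3.31 CPM. Its groups overlapped, and the log2 fold change was -0.64 ± 0.26 (SE; adjusted p 0.38, limma). Col16a1 was at 0.103 to 3.77 CPM, with a log2 fold change of -0.02 that was 0.30 with edgeR.

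The other expressed chains were Col6a1 and Col6a3 of type VI collagen, which forms beaded filaments around cells, Col18a1, and Col7a1 of the anchoring fibrils. Their log2 fold changes were 0.46, -0.21, 0.67 and -0.56, with overlapping groups, and 0 passed the test. Col6a1 was at 0.0519 CPM in control replicate 1 and at up to 3.89 CPM in high-iron replicate 2, whereas Col6a3 was highest in control replicate 1, at 5.77 CPM. Over the 10 expressed chains of other kinds, 0 were called, 3 log2 fold changes were above 0 and 7 below, and the median was -0.13 (-0.77 to 0.67), with Col23a1 included. Their class summed to 423 to 505 CPM in control and 368 to 518 CPM in high-iron libraries.

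Set side by side as shares of the summed collagen RPKM, the classes had the following makeup. Type IV chains held 69.4% ± 7.05 in control and 75.0% ± 0.649 in high-iron libraries (SD, n = 3). Fibrillar chains held 3.33% ± 0.226 and 1.82% ± 0.050. The other chains, mostly Col13a1, held 27.3% ± 6.83 and 23.2% ± 0.697. The difference in the fibrillar share between the groups was larger than the spread within them, and it contains the difference in Col27a1, so it is no separate result. No test of a difference between classes was made.

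Several collagen chains ranked the libraries alike in both diet groups, a pattern noticed after the values were seen. For 8 of the 20 expressed chains, Col13a1, Col14a1, Col18a1, Col5a1, Col3a1, Col1a2, Col6a1 and Col16a1, replicate 2 was the highest and replicate 1 the lowest library in both diet groups. The same order was seen for 505 of the 12980 genes tested (3.89%). It was also seen for 14 of the 16 tested stellate and fibroblast markers, 6 of 12 hepatocyte markers, 0 of 10 endothelial markers and 0 of 12 Kupffer markers. Apart from Col13a1, those chains summed to 21.1, 83.2 and 41.8 CPM in control replicates 1, 2 and 3 and to 21.6, 118 and 58.2 CPM in the high-iron replicates. The stellate and fibroblast markers summed to 426, 1912 and 1009 CPM and to 691, 2049.5 and 1388 CPM in the same order. Hepatocyte markers summed to 281, 1223 and 744 CPM and to 635, 1264 and 1006 CPM, which ranks the libraries in the same way. Since these chains were picked by the order of their libraries, their sum has that order by choice. Its likeness to both marker sums is no further result. The part of stellate cells or hepatocytes in the levels of these chains was not tested. Col27a1, Col17a1, Col5a2, Col4a1 and Col4a2 did not follow this order. The replicate numbers only name libraries here, and no shared origin is given for them.

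**Figure D4:**
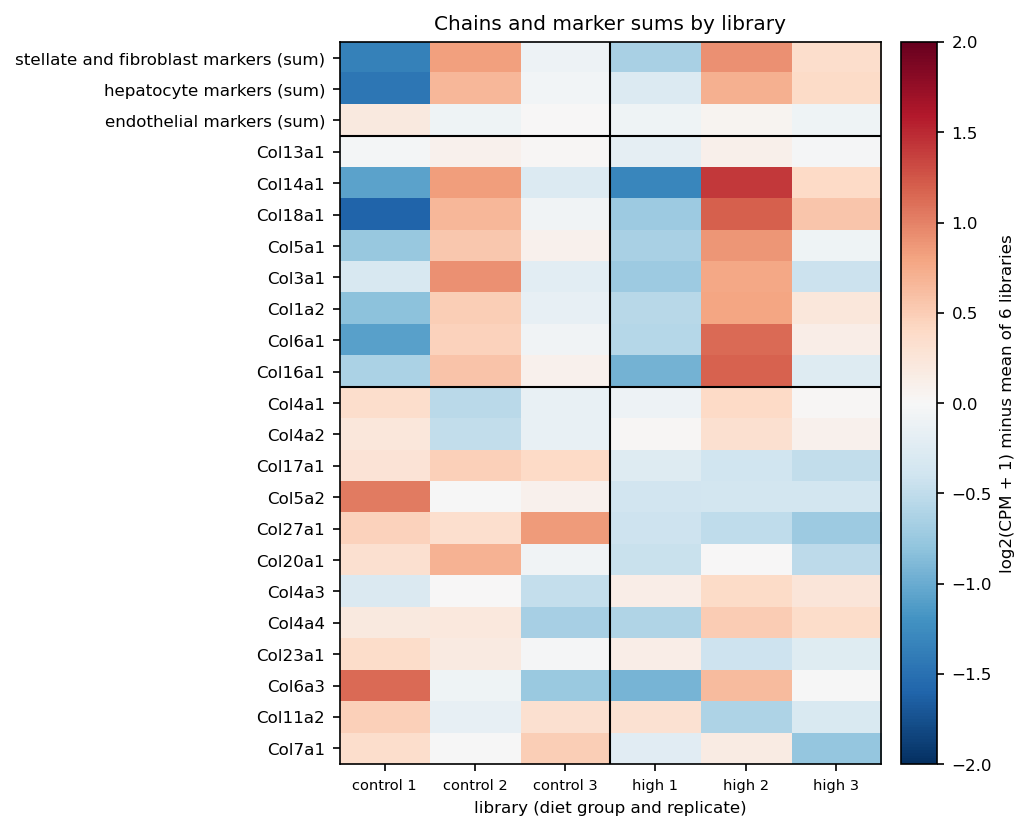
Log2(CPM + 1) of each chain minus its mean over 6 libraries, as colour, by library, with the summed markers of stellate cells, hepatocytes and endothelium at the top. The 8 chains in the middle block were picked as lowest in replicate 1 and highest in replicate 2 of each diet group. The stellate and hepatocyte sums both have that order, and the 12 chains below have other orders.

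The machinery that makes, processes, crosslinks, degrades and binds collagen was read from 8 lists with 80 genes, of which 57 were tested. Of these, 1 was higher (Bmp1) and 0 were lower at an adjusted p under 0.05 in limma, against 0.832% and 0.193% of all genes tested. Their median log2 fold change was 0.05, with 37 above 0 and 20 below, where 50.5% of all genes tested were below 0. The 37 include Pcolce2, which met the filter in high-iron libraries alone. They also include Adamts2, which reached 1 CPM in 3 high-iron libraries and 1 control library, so the filter bears on this count. Bmp1 encodes the proteinase that removes the C-terminal ends of fibrillar procollagens, at chr14:70474558-70520234 on the minus strand. It was at 0.935, 1.67 and 1.77 CPM in the control replicates and at 4.11, 8.55 and 8.92 CPM in the high-iron replicates. The groups did not overlap, and the mean rose from 1.46 ± 0.455 to 7.19 ± 2.68 CPM (SD, n = 3), between 18 and 145 reads per library. The log2 fold change was 1.69 ± 0.31 (SE; 95% interval 1.01 to 2.38), with an adjusted p of 0.037 in limma and 0.048 in edgeR. With 1 library left out, adjusted p was 0.0498 without control replicate 1 and 0.021 without high-iron replicate 1. It was 0.083 and 0.082 without control replicates 2 and 3, and 0.16 and 0.20 without high-iron replicates 2 and 3. Kupffer markers were also higher in these libraries, at 503, 253 and 351 CPM in high-iron replicates 1, 2 and 3. They were highest in replicate 1, where Bmp1 was lowest of the high-iron libraries, and their part in the Bmp1 value was not tested.

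Of the 9 procollagen proteinases and enhancers, 5 were tested. Among these, Pcolce2 met the filter in the 3 high-iron libraries alone, and Adamts2, named here after its values were seen, in 3 high-iron and 1 control library, so no count of directions is given for this list. Pcolce2, an enhancer of the C-proteinase, was at 0.468, 0.418 and 0.456 CPM in control and at 2.98, 1.30 and 1.85 CPM in high-iron libraries. A gene that meets the filter in high-iron libraries alone must be higher there without overlap, so neither is a result for Pcolce2. Its log2 fold change was 1.03 ± 0.27 (SE; adjusted p 0.13 in limma and 0.026 in DESeq2), and the same limit holds for these p-values. The more abundant enhancer Pcolce (19.5 RPKM) and the proprotein convertase Furin (13.6 RPKM) had log2 fold changes of 0.27 and 0.29, with overlapping groups.

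Enzymes and chaperones that act on collagen inside the cell showed no call. Of 15 prolyl and lysyl hydroxylases and their partners, 14 were tested, with 10 above 0 and a median of 0.06. The most abundant per length were P4hb, the disulfide isomerase subunit of prolyl 4-hydroxylase (168 RPKM, log2 fold change 0.41), and Ppib, a proline isomerase of the endoplasmic reticulum (83.6 RPKM, -0.12). Exons of Snx22 on the opposite strand of the same locus overlap 25% of the Ppib exon length, so its level is uncertain, and with the annotated exon length it was 24.2 RPKM. No expressed collagen chain had a near-identical copy over 50% or more of its length elsewhere. Of 8 chaperones and export factors, 6 were tested, with a median of -0.02. Sparc, a secreted collagen-binding protein, was at 2212 RPKM (log2 fold change -0.05), and Serpinh1, the collagen chaperone HSP47, at 83.9 RPKM (0.03). Both directions depended on the scaling, since quantile normalisation gave 0.02 and -0.02.

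Among 7 crosslinking enzymes, 5 were tested, with 0 called and a median of 0.05. Loxl3, a lysyl oxidase, was at 44.4, 37.2 and 29.6 CPM in control and at 58.9, 91.4 and 63.9 CPM in high-iron libraries. The high-iron libraries were all above the control libraries, and the log2 fold change was 0.92 ± 0.21 (SE), with an adjusted p of 0.078 in limma, 0.04 without control replicate 1, and 0.0024 in DESeq2. Exons of Htra2 on the opposite strand overlap 11.6% of its exon length. Pxdn, the peroxidase that forms the sulfilimine crosslinks of type IV collagen, was at 51.3 RPKM with a log2 fold change of -0.06, and Tgm2, a transglutaminase, at 35.2 RPKM with 0.05. Gm20412 on the opposite strand overlaps 13.7% of the Tgm2 exon length.

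Of 14 genes of collagen degradation and its inhibitors, 6 were tested, with 0 called and a median of 0.04. Mmp15, a membrane-type metalloproteinase, was at 5.77, 2.74 and 5.24 CPM in control and at 1.03, 2.30 and 1.77 CPM in high-iron libraries, without overlap. Its log2 fold change was -1.03 ± 0.30 (SE; adjusted p 0.19, limma). Timp3, a metalloproteinase inhibitor held in the matrix, was at 518, 399 and 202 CPM and at 578, 763 and 520.4 CPM. Its groups were separated by a small gap between control replicate 1 and high-iron replicate 3, with a log2 fold change of 0.82 ± 0.30 (SE; adjusted p 0.33, limma), and Syn3 overlaps 21.3% of its exon length on the opposite strand. Ctsl, a lysosomal protease (759.8 RPKM, or 229.8 with the annotated exon length), had -0.17, with Gm47123 on the opposite strand over 26.8% of its exon length, and the inhibitor Timp2 (159 RPKM) 0.05, or -0.02 after quantile normalisation.

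Of 10 collagen receptors, 5 were tested, and 0 were called. Mrc1, the mannose receptor through which sinusoidal endothelium takes up collagen chains, was at 385 RPKM, with 2271 ± 92.0 CPM in control and 2285 ± 97.1 CPM in high-iron libraries (SD, n = 3). Its log2 fold change was 0.01, or -0.01 after quantile normalisation. Itgb1, the beta subunit of the collagen-binding integrins, was at 163 RPKM with 0.27.

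All 9 basement membrane partners of type IV collagen were tested, with 0 called, 5 above 0 and a median of 0.29. Lama5, a laminin alpha chain, was at 96.7, 77.3 and 96.2 CPM in control and at 113, 135 and 132 CPM in high-iron libraries. Nid1, which links laminin to type IV collagen, was at 495, 423 and 489 CPM and at 395, 403 and 365 CPM. The groups did not overlap for either gene, Lama5 being higher and Nid1 lower, with log2 fold changes of 0.49 ± 0.14 and -0.27 ± 0.13 (SE) and adjusted p of 0.18 and 0.43 in limma. Hspg2, the proteoglycan perlecan, had -0.49 ± 0.21 (adjusted p 0.39), and the laminin chain Lamb2 0.38. Of 8 small leucine-rich and fibril-associated proteins, 7 were tested, with 0 called and a median of 0.10. Fbn1, the fibrillin of microfibrils, was at 19.5, 8.17 and 12.6 CPM in control and at 4.88, 5.66 and 6.00 CPM in high-iron libraries, without overlap (log2 fold change -1.08 ± 0.29, SE; adjusted p 0.14 in limma and 0.0093 in DESeq2), and Gm9913 overlaps 20.1% of its exon length on the opposite strand. The proteoglycans Bgn and Dcn had 320.1 and 60.6 RPKM (156 and 21.5 with annotated exon lengths), with log2 fold changes of 0.10 each, and that of Dcn was -0.24 with edgeR.

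**Figure D5:**
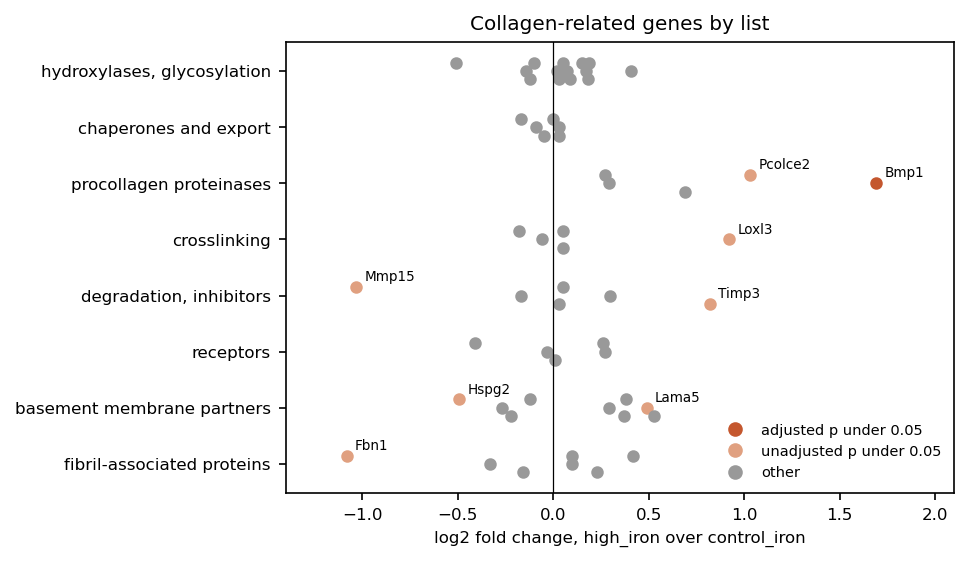
Log2 fold change (high-iron over control) of the tested genes of the 8 collagen pathway lists, a point per gene and a row per list. Bmp1, at 1.69, is the darkest point and the only one with an adjusted p under 0.05, genes with an unadjusted p under 0.05 are named in a lighter shade, and the rest are grey.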

How the data were processed

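RNA of sorted liver endothelial cells was sequenced from 3 control and 3 high-iron libraries, made with a low-input cDNA kit that does not mark strand, per the labels' protocols. STAR, HTSeq, edgeR and the build mm10 are named in the submitters' processing notes, with neither version nor role. How reads were counted, and on which annotation, is not stated in the labels. The authors deposited a normalized signal named CPM, which is reads divided by a scaled library size. All 114253 values above 0 (100%) came out as whole reads within 0.001 read, so reads were recovered, 12963510 to 21663543 per library. The deposited RPKM is CPM divided by Length in kilobases and holds no further measurement.

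The main test was limma 3.58.1 (R 4.3.3) on log2(CPM + 1), two-sided, with group as the only term and an intensity trend, over 12980 genes with at least 1 CPM in 3 libraries, adjusted by Benjamini-Hochberg, threshold 0.05. The count tests edgeR 4.0.16 and DESeq2 1.42.0 on recovered reads, pseudocounts of 0.1 and 0.5, other filters, quantile normalisation, a replicate block and leaving out each library were alternatives. On recovered reads edgeR called 112 genes and DESeq2 424. Methods were tested on simulated data. There limma recovered 45 of 100 changes of 2-fold and 85 of 100 of 4-fold, with 10 false calls among 140. A missing call therefore does not show that a gene is unchanged.

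Members, lists and tests were chosen with earlier results of these data known. Every expressed chain is named. Values per library are given for chains that were called, had an unadjusted p under 0.05 or groups that did not overlap, or were among the 8 most abundant per length. Of each list, called genes, the 2 most abundant and those with an unadjusted p under 0.05 (where 3 or fewer) are named. Nid1 is among the most abundant of its list. Positions come from GENCODE M21 on GRCm38. Promoter windows (RefSeq, GRCm38.p6) matched 35 of 44 chains. For chains and named genes, transcripts were searched with BLAST+ for copies at 95% identity.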

Additional observations from a re-analysis of the deposited data

How the results depend on the processing

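Of the collagen chains, 1 was called in the fit reported, and 1 with pseudocounts of 0.1 or 0.5, quantile normalisation and edgeR. The number was 0 with no filter and 0 without the intensity trend, and 2 (Col27a1 and Col17a1) with a filter of 5 CPM, with DESeq2 and with the replicate block. With a library left out it was 0 to 1. Of the listed pathway genes, 1 was called in the fit reported. The number was 0 with no filter, with a filter of 5 CPM (which leaves Bmp1 out) or without the trend. With DESeq2 it was 4 (Bmp1, Fbn1, Loxl3 and Pcolce2). Pcolce2 met the filter in high-iron libraries alone, so its call is no support. With the replicate block in limma it was 4 (Bmp1, Fbn1 at an adjusted p of 0.027, Loxl3 at 0.01 and Timp3 at 0.031). With a library left out it was 0 to 2. A filter of 5 CPM in 3 libraries left 12 expressed chains, and one of 1 RPKM left 10, in place of 20. Where not stated, the cause was not tested. The labels do not say that replicate numbers pair libraries, and they were not taken to do so. Same-numbered libraries correlated in their deviations from group means with r of 0.128, 0.32 and 0.063. Control replicates 1 and 2 correlated best with the high-iron library of their own number, and control replicate 3 with high-iron replicate 1 (0.198).

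Of 649 single-gene alternatives of the diet comparison, 583 kept direction and side of the threshold, 12 were weaker, 10 became calls and 44 reversed, none of these from a called value. Col16a1 reversed to 0.30 with edgeR and 0.31 with DESeq2, and Dcn to -0.24 and -0.23. Quantile normalisation turned Sparc to 0.02, Serpinh1 to -0.02, Timp2 to -0.02 and Mrc1 to -0.01, and edgeR turned Serpinh1 and Mrc1 to -0.002. With a library left out, log2 fold changes ranged across 0 for Col13a1 (-0.12 to 0.01), Col14a1 (-0.28 to 1.08), Col5a1 (-0.32 to 0.45), Col3a1 (-0.70 to 0.14), Col1a2 (-0.01 to 0.67), Col4a4 (-0.11 to 0.52), Col16a1 (-0.61 to 0.45) and Col6a3 (-0.63 to 0.31). The same held for Sparc (-0.12 to 0.02), Serpinh1 (-0.24 to 0.35), Pxdn (-0.14 to 0.06), Tgm2 (-0.10 to 0.26), Timp2 (-0.05 to 0.23), Mrc1 (-0.03 to 0.04), Bgn (-0.004 to 0.21) and Dcn (-0.80 to 0.86). Annotated in place of deposited gene lengths, an alternative chosen after seeing the data, changed the level per length of 1 expressed chain, Col4a4, by over 1.5 times, and would put Crtap (89.3 RPKM) above Ppib (24.2 RPKM) among the hydroxylases and their partners. Chains near 1 CPM rest on 13.0 to 21.5 reads per library, and with 3 libraries a group their intervals are wide.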
